A study of Mus musculus with 8 samples.

Results

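The genes described here encode the protein subunits of the mitochondrial respiratory chain and of ATP synthase, in mouse primordial germ cells at embryonic day 11.5 (E11.5). They were chosen by symbol among protein-coding genes. From the mitochondrial genome these were the mt-Nd, mt-Co, mt-Cytb and mt-Atp genes. The nuclear ones were Sdha to Sdhd and genes whose symbols begin with Uqcr, Cox4 to Cox8 or Atp5. Symbols that begin with Ndufa, Ndufb, Ndufc, Ndufs or Ndufv were taken where a digit follows directly. The annotation holds 98 such genes, 13 of them mitochondrially encoded and 85 nuclear. The files hold counts for 95 of the 98, among 21444 genes in all, and 91 of the 95 had enough counts to be tested. The 3 with no row in any library, Cox4i2, Cox6a2 and Cox8b, are nuclear isoform genes of complex IV, and the files list only transcripts with at least 1 count.

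RNA was sequenced from 4 Prmt5 KO and 4 Control libraries on the SOLiD platform, each prepared from 50 pg of total RNA. In Prmt5 KO cells both copies of Prmt5, which encodes an arginine methyltransferase, were floxed (Blimp1Cre;Prmt5 flox/flox). Control cells carried Blimp1Cre too, with 1 floxed and 1 wild-type copy (Blimp1Cre;Prmt5flox/+), so Cre could delete 1 Prmt5 copy in Control cells as well. Both groups shared a mixed C57BL/6 and 129 background, the age E11.5 and a reporter labelled dPE_Oct4 GFP, on which the cells were sorted. Cre in these animals is driven by Blimp1 (Prdm1), a gene switched on in germ cell precursors, and the sort itself does not separate cells by whether Prmt5 was deleted. The labels do not say that libraries came from separate embryos, so a p-value here reflects only how these libraries vary, and part of that may be technical.

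The respiratory chain passes electrons from NADH (complex I) and succinate (complex II) through complex III to cytochrome c and on to oxygen at complex IV, and ATP synthase (complex V) uses the proton gradient so built. Complex II is encoded wholly in the nucleus, whereas the other 4 are each assembled from subunits of both genomes. Mitochondrial DNA is transcribed as long RNAs that cover many genes and are then cut into shorter messages, not all of a single gene. Its protein subunits lie on the same strand except mt-Nd6. The nuclear subunit genes are transcribed one by one, and NRF1, the ETS factor GABP (NRF2) and YY1 are known to act at many of their promoters.

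Joined pairs of mitochondrial genes are shown first because the bases at the joins are annotated to both genes. The last and first 60 coding bases around 2 of the joins are given 5' to 3' from the GRCm38 mitochondrial genome, plus strand. The join of mt-Atp6 and mt-Co3, at chrM:8607, is not shown. Capitals mark the bases that both genes share (7 bases between mt-Nd4l and mt-Nd4, and 43 bases between mt-Atp8 and mt-Atp6).
mt-Nd4l end (chrM:10114-10173): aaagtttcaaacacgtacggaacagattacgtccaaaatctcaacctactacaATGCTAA
mt-Nd4 start (chrM:10167-10226): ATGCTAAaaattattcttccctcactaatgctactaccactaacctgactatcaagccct
mt-Atp8 end (chrM:7910-7969): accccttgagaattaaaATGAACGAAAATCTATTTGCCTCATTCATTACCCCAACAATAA
mt-Atp6 start (chrM:7927-7986): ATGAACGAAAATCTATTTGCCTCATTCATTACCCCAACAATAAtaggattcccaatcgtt

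Promoter windows of 3 nuclear genes are shown because they carry the motif letters and the isoform pair described further on. RefSeq windows on GRCm38.p6 run from 250 bases before to 50 bases after a gene's start, and 65 nuclear member genes had one. The letters searched, on both strands, were GCATGCG for the NRF1 core, CCGGAAG for ETS factors and ATGGCG for YY1, and none of the 3 is contained in another. Capitals mark every match, on either strand.
Cox6a1 (chr5:115348909-115349208, minus strand): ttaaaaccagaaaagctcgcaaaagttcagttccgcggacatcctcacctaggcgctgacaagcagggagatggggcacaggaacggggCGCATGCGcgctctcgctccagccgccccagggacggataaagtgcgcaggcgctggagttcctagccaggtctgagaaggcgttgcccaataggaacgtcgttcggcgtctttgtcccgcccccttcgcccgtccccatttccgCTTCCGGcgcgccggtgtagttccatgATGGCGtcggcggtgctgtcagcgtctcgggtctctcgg
Cox6b1 (chr7:30626065-30626364, minus strand): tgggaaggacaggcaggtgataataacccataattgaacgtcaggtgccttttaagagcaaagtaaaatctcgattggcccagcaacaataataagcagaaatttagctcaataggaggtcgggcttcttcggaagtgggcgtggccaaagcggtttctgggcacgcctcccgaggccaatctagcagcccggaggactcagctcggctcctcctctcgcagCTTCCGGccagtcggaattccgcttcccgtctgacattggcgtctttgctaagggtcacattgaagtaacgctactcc
Cox6b2 (chr7:4753045-4753344, minus strand): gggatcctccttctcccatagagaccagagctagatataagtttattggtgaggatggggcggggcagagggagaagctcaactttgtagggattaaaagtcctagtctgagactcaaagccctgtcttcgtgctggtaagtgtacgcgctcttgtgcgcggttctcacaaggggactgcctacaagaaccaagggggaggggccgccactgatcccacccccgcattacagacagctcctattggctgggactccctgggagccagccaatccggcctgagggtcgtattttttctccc

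Cox6a1, a nuclear subunit of complex IV, held a match to each of the 3 motifs, and its NRF1 core stretch reads as a match on both strands. Cox6b1 held 1 ETS match, and Cox6b2, its testis-expressed isoform gene, held none of the 3. The NRF1 core letters occurred in 11 of the 65 member promoters (16.9%), among them Atp5g2, Ndufa11, Sdhb and Uqcrc1. Over all genes with a window, 1085 of 27025 (4.01%) held them. The ETS letters occurred in 16 of 65 members (24.6%) and in 9.93% of all genes, and the YY1 letters in 18 of 65 members (27.7%) and in 10.2% of all genes. The member windows also held more CpG dinucleotides, with a median of 19 per window over 70 windows against 7 over all 32851 windows. All 3 motifs contain a CG; the part of CpG content in these shares was not tested, and a match describes letters and not binding.

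Depth and sample identity were uneven. Total gene counts lay between 4318972 and 6549504 in Prmt5 KO libraries and between 1811428 and 5844441 in Control libraries. Levels are given as CPM, gene counts relative to the library total after TMM scaling. The targeted gene, Prmt5, held 39.9, 40.5, 35.3 and 26.4 CPM in Prmt5 KO libraries, against 89.4, 171, 172 and 118 CPM in Control libraries. Its log2 fold change was -1.95 (SE 0.27, adjusted p = 0.0389 by edgeR's quasi-likelihood test with Benjamini-Hochberg adjustment), and all 4 Prmt5 KO libraries kept some Prmt5 RNA. The call was lost when any 1 library other than Control 1 was left out. The fold change itself lay between -2.25 and -1.54 over all the alternative fits described further on. Summed CPM over 12 germ cell markers, all 12 with counts, was 3087 to 3824 in Prmt5 KO and 3151 to 3801 in Control. Summed CPM over 15 markers of somatic gonad and mesonephros was 796 in Prmt5 KO 1, 177 to 217 in the other Prmt5 KO libraries and 140 to 219 in Control libraries, with Pax2 and Emx2 at or near 0. Mfge8 alone held 177, 168, 172 and 152 CPM in Prmt5 KO libraries, against 114, 139, 145 and 180 CPM in Control libraries. It thus made up most of this sum in every library but Prmt5 KO 1. The endothelial sums were 296 to 395 CPM in Prmt5 KO and 279 to 360 CPM in Control (7 markers), most of it Pecam1 at 215 to 345 CPM over the 8 libraries, and the blood sums were 7.48 to 39.7 CPM in Prmt5 KO and 21.1 to 43.1 CPM in Control (7 of 11 markers in the files, 4 of these with at most 3 counts). The endothelial markers did not move together. Tek averaged 52.3 ± 28.1 CPM in Prmt5 KO and 12.3 ± 11.2 CPM in Control. Its log2 fold change was 2.05 (adjusted p = 0.409 by edgeR and 0.043 by DESeq2). Egfl7 went the other way, at -1.18 (SE 0.66, adjusted p = 0.684 by edgeR and 0.555 by DESeq2), and Pecam1 was at -0.03 (SE 0.17). In every library Cdh5 was at 5.8 CPM or less, and Kdr, Tie1 and Emcn were at 1.65 CPM or less. The part of somatic or endothelial RNA in the results below was not tested. In these bulk libraries, fewer cells of a type and less RNA per cell cannot be told apart.

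Subunit RNA made up a similar part of the RNA in both groups. The 13 mitochondrially encoded genes took 11.3%, 9.01%, 9.29% and 9.06% of gene counts in Prmt5 KO libraries 1 to 4, against 9.74%, 11.5%, 10.1% and 10% in Control libraries 1 to 4. The means were 9.66% ± 1.07 in Prmt5 KO and 10.3% ± 0.761 in Control (SD, n = 4 each), a difference of -0.68 percentage points. Prmt5 KO libraries 2 to 4 all lay below every Control library, while Prmt5 KO 1, the library with the raised somatic markers, lay above 3 of the 4. Without Prmt5 KO 1 the Prmt5 KO mean was 9.12% ± 0.148 (SD, n = 3) and the difference -1.22 points; the part of somatic cells in this was not tested, and no test was made on these sums. The 82 nuclear genes together took 1.26%, 1.53%, 1.46% and 1.51% of gene counts in Prmt5 KO libraries, against 1.38%, 1.45%, 1.40% and 1.58% in Control libraries. Their means of 1.44% ± 0.125 in Prmt5 KO and 1.45% ± 0.0878 in Control differed by less than the SD of either group.

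Mitochondrially encoded counts thus outnumbered nuclear ones several times over. The ratio was 8.93, 5.88, 6.36 and 5.99 in Prmt5 KO libraries 1 to 4, against 7.06, 7.87, 7.23 and 6.35 in Control libraries 1 to 4. The means were 6.79 ± 1.44 in Prmt5 KO and 7.13 ± 0.626 in Control, and the groups overlapped. Prmt5 KO 1 had the highest ratio of the 8 libraries and Prmt5 KO 2 the lowest.

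**Figure D1:**
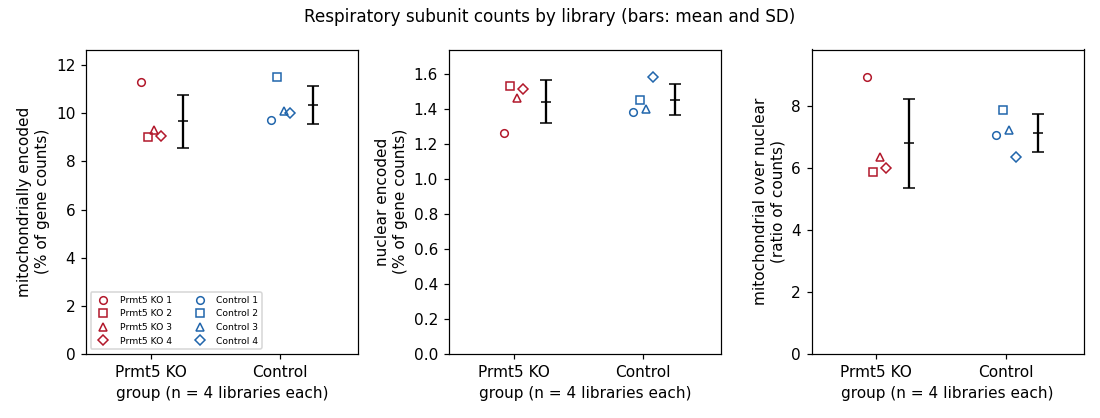
Share of gene counts on mitochondrially encoded subunits (left, %), on nuclear encoded subunits (middle, %) and the ratio of these counts (right), with 1 point per library and the mean and SD of 4 libraries beside each group. Prmt5 KO 1 stands at 11.3% and a ratio of 8.93, and the other 3 Prmt5 KO libraries at 9.01% to 9.29% and at 5.88 to 6.36.

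No member gene passed the test. Of the 91 members tested, 0 had an adjusted p under 0.05 by edgeR's quasi-likelihood test (3 of all 10990 genes, 0.0273%), 0 by DESeq2 (1.02% of all 10482 genes with an adjusted p), and the smallest adjusted p was 0.551 (edgeR). At an unadjusted p under 0.05 there were 5 members of 91, beside 8.15% of all genes tested: Cox5a and Cox7a2l higher (4.47% of all genes) and mt-Nd3, mt-Nd4 and Sdha lower (3.69% of all genes). When 1 library was left out, these counts were 0 to 3 for mitochondrially encoded members, against 2 with all libraries, and 1 to 4 for nuclear ones, against 3. The median log2 fold change was -0.01 over the 12 mitochondrially encoded genes tested and -0.04 over the 79 nuclear ones, beside 0.03 over all genes, with 39 members above 0 and 52 below. Of the 91, 86 (94.5%) lay within 0.5 of 0 on the log2 scale, beside 67.5% of all genes, and the median standard error was 0.13 for mitochondrially encoded members, 0.32 for nuclear ones and 0.44 for all genes. Only Cox7a2l was higher in every Prmt5 KO library than in every Control library, and only Sdha was lower in every one, beside 2.63% and 2.27% of all genes tested (4.9% in either direction).

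**Figure D2:**
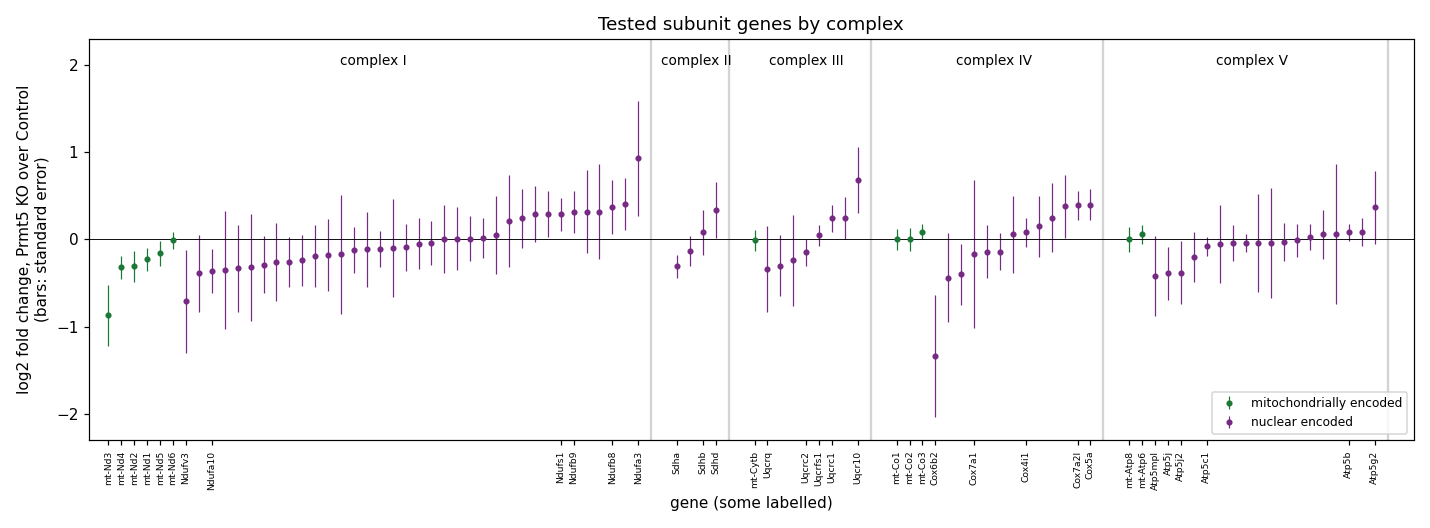
Log2 fold change, Prmt5 KO over Control, of each of the 91 subunit genes tested, ordered within complexes I to V, with some genes labelled (bars: standard error; green, mitochondrially encoded; purple, nuclear encoded). The 6 mitochondrially encoded complex I genes all lie below 0, from -0.87 to -0.01, and the nuclear genes range from -1.34 (Cox6b2) to 0.93 (Ndufa3).

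Among the mitochondrially encoded genes, mt-Co1, the catalytic subunit of complex IV, had the highest level per length. It held 34721, 23959, 23526 and 31664 CPM in Prmt5 KO libraries, against 27987, 29593, 27251 and 29085 CPM in Control libraries. The Prmt5 KO libraries spread on both sides of the Control ones, and the log2 fold change was 0.00 (SE 0.12). As a share of mitochondrially encoded counts mt-Co1 was 28.9% ± 2.9 in Prmt5 KO and 27.7% ± 1.98 in Control (SD, n = 4 each).

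The other complex IV, III and V genes of the mitochondrial genome also differed little between groups. mt-Co3, a core membrane subunit of complex IV, averaged 11370 ± 872 CPM in Prmt5 KO and 10691 ± 908 CPM in Control (SD, n = 4 each, as for the means that follow), and mt-Co2, which receives electrons from cytochrome c, 4944 ± 889 CPM in Prmt5 KO and 4941 ± 417 CPM in Control. mt-Cytb, the heme-binding core of complex III, averaged 10900 ± 1500 CPM in Prmt5 KO and 10950 ± 1765 CPM in Control. The ATP synthase membrane subunits mt-Atp6 and mt-Atp8 averaged 6432 ± 748 and 1468 ± 255 CPM in Prmt5 KO, against 6150 ± 699 and 1465 ± 194 CPM in Control. Fold changes of these 6 genes, mt-Co1 included, lay between -0.01 and 0.09 on the log2 scale, and their standard errors leave room for small differences in either direction.

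All 6 tested complex I genes of the mitochondrial genome had negative fold changes, with a median of -0.27, and none passed the test. Over the 20 alternative fits described further on, mt-Nd6 changed sign in 7 and mt-Nd5 in 1. mt-Cytb and mt-Co1 also lay just below 0. mt-Nd4, a proton-pumping membrane subunit, held 16086, 11409, 11735 and 11332 CPM in Prmt5 KO libraries, against 15028, 18867, 15896 and 13348 CPM in Control libraries. Prmt5 KO libraries 2 to 4 were below all Control libraries and Prmt5 KO 1 was above 3 of them, and the log2 fold change was -0.32 (SE 0.13, unadjusted p = 0.0284, adjusted p = 0.554, edgeR). mt-Nd1 averaged 7381 ± 1264 CPM in Prmt5 KO and 8677 ± 1403 CPM in Control, with a log2 fold change of -0.23 (SE 0.13), and mt-Nd2 averaged 3556 ± 322 CPM in Prmt5 KO and 4417 ± 1315 CPM in Control, with -0.31 (SE 0.18). Without Control 2, the Control library with the highest level of both genes, these became -0.11 for mt-Nd1 and -0.12 for mt-Nd2. Without Prmt5 KO 1 mt-Nd1 was at -0.36, and without Control 4 mt-Nd2 was at -0.48. mt-Nd5 (3685 ± 680 CPM in Prmt5 KO, 4121 ± 578 CPM in Control) was at -0.16, and mt-Nd6, the only one on the other strand, at -0.01 (7286 ± 665 CPM in Prmt5 KO, 7339 ± 680 CPM in Control). The annotated exon of mt-Nd6 overlaps mt-Nd5 on the opposite strand only at chrM:13552-13565. Per kilobase over the 8 libraries mt-Nd6 was at 14090 CPM and mt-Nd5 at 2140. No source used here states whether counting used strand, and the part of opposite-strand RNA in the mt-Nd6 counts was not tested.

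Set against the complex IV genes of the same genome, the summed counts of mt-Nd1, mt-Nd2, mt-Nd4 and mt-Nd5 gave a ratio to the summed counts of mt-Co1, mt-Co2 and mt-Co3 of 0.632, 0.615, 0.664 and 0.532 in Prmt5 KO libraries, against 0.746, 0.859, 0.767 and 0.618 in Control libraries. The means were 0.611 ± 0.0563 in Prmt5 KO and 0.747 ± 0.0994 in Control. Control 4 lay within the range of the Prmt5 KO libraries and the other 3 Control libraries above it. This ratio does not depend on library scaling; it was chosen after the values were seen and has no test.

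mt-Nd3 and mt-Nd4l, both small complex I membrane subunits, stood far below their neighbours. mt-Nd3 (chrM:9459-9806) held 35.0, 75.6, 80.3 and 27.2 CPM in Prmt5 KO libraries, against 124, 114, 73.5 and 86.9 CPM in Control libraries. The groups overlapped through Control 3, and the log2 fold change was -0.87 (SE 0.35, unadjusted p = 0.0278, adjusted p = 0.551, edgeR). mt-Nd4l (chrM:9877-10173) had 3 counts over all 8 libraries, 2 of them in Prmt5 KO and 1 in Control, and was not tested. Its right-hand neighbour mt-Nd4, with which it shares 7 bases, had 10314 CPM per kilobase over the 8 libraries, beside 0.218 for mt-Nd4l and 221 for mt-Nd3.

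Annotated nuclear copies of mitochondrial DNA bear on how reads could be given to these genes. Of the 50-base words of mt-Nd4l, 98.8% also occur in annotated transcripts of other genes, and for mt-Nd3 the share is 98%. It was also 99.5% to 100% for mt-Co2, mt-Atp6 and mt-Co3, which averaged 4943 CPM or more over the 8 libraries. For mt-Nd4 it was 62.2% and for mt-Co1 51.1%, so that 7 of the 13 genes shared at least 50% of their words. The share was 8.19% for mt-Nd2, 7.61% for mt-Nd5, and 0% for mt-Nd1, mt-Nd6, mt-Cytb and mt-Atp8. Gm10222, the chromosome 1 copy that holds the mt-Nd4l words, was at 0 CPM in all libraries but Control 4 (0.352 CPM). Whether the shared sequence has a part in the low values of mt-Nd3 and mt-Nd4l was not tested.

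**Figure D3:**
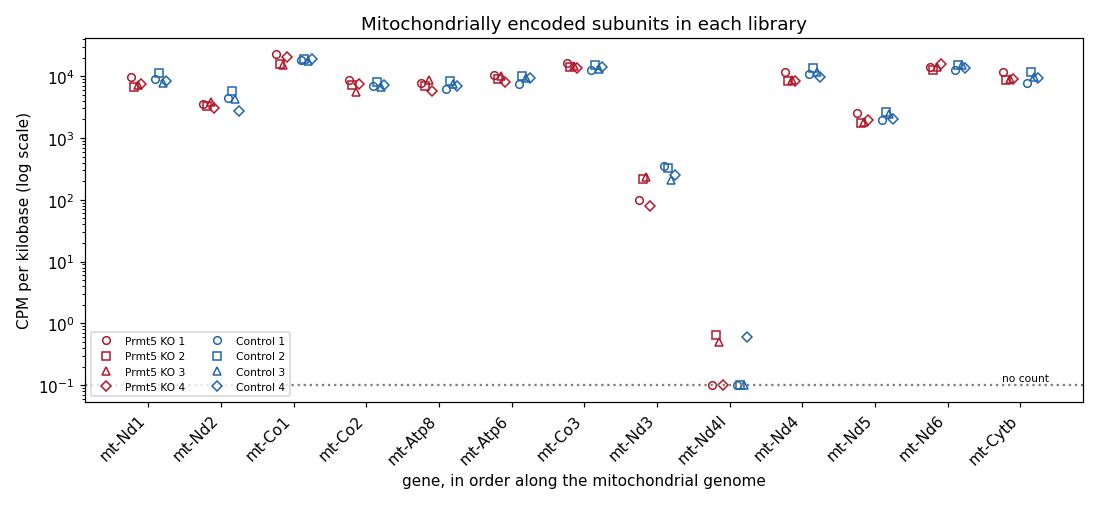
Level of the 13 mitochondrially encoded subunit genes in each library (CPM per kilobase of transcript, log scale; genes in order along the mitochondrial genome; 1 marker per library, red for Prmt5 KO and blue for Control, points on the dotted line have no count). The other genes lie well above mt-Nd3 and mt-Nd4l: mt-Nd3 averages 221, mt-Nd4l 0.218 and mt-Nd5, the next in level, 2140 CPM per kilobase.

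Complex I has the most nuclear members, 37 in the files and 36 tested, with 16 fold changes above 0 and 20 below (median -0.07). The best represented per length was Ndufb8, an accessory membrane subunit, at 80.0, 108, 122 and 272 CPM in Prmt5 KO libraries, against 118, 114, 100 and 117 CPM in Control libraries. Prmt5 KO 4 was the highest of all libraries and Prmt5 KO 1 the lowest, and the log2 fold change of 0.37 was -0.12 when Prmt5 KO 4 was left out. Ndufb9, another accessory subunit, averaged 126 ± 34.9 CPM in Prmt5 KO and 102 ± 17.1 CPM in Control. Ndufs1, the largest iron-sulfur subunit of the electron-accepting arm, held 340, 306, 309 and 544 CPM in Prmt5 KO libraries, against 287, 325, 343 and 271 CPM in Control libraries, so that its log2 fold change of 0.29 (SE 0.19) rested on Prmt5 KO 4 and was 0.06 without it. Ndufa10, an accessory subunit, averaged 108 ± 29.1 CPM in Prmt5 KO and 138 ± 36.6 CPM in Control (log2 fold change -0.36, SE 0.25, adjusted p = 0.756, edgeR).

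The ends of the complex I range were genes of low count: Ndufa3 at 0.93 (SE 0.66) averaged 8.4 ± 4.92 CPM in Prmt5 KO and 4.39 ± 1.41 CPM in Control, and Ndufv3 at -0.71 (SE 0.59) averaged 6.38 ± 2.12 CPM in Prmt5 KO and 10.6 ± 3.72 CPM in Control. Among core subunits of the matrix arm, Ndufv1, Ndufv2, Ndufs3, Ndufs7 and Ndufs8 had fold changes between -0.24 (Ndufv2) and 0.24 (Ndufs7). Ndufa4 is placed with complex I by its symbol but is now regarded as a complex IV subunit; it averaged 59.1 ± 18.8 CPM in Prmt5 KO and 48.2 ± 10.6 CPM in Control. Ndufa4l2 had 12 counts in all and was not tested.

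Of the 4 complex II genes, Sdha encodes the flavoprotein that oxidises succinate. It held 701, 648, 564 and 558 CPM in Prmt5 KO libraries, against 930, 704, 704 and 716 CPM in Control libraries. Every Prmt5 KO library was below every Control library, by a narrow margin between Prmt5 KO 1 and Control 2 or 3. The means of 618 ± 68.9 CPM in Prmt5 KO and 764 ± 111 CPM in Control gave a log2 fold change of -0.31 (SE 0.13), which did not pass after adjustment (unadjusted p = 0.0399, adjusted p = 0.589, edgeR), and it was -0.20 without Control 1. Sdhb, the iron-sulfur subunit, averaged 166 ± 74 CPM in Prmt5 KO and 157 ± 26.4 CPM in Control, with 277 CPM in Prmt5 KO 4. Sdhd, a membrane anchor, averaged 63.2 ± 6.27 CPM in Prmt5 KO and 50.3 ± 19 CPM in Control (log2 fold change 0.34).

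The 8 nuclear complex III genes had 4 fold changes on each side of 0. Uqcrfs1, the Rieske iron-sulfur protein and the best represented per length, averaged 472 ± 40 CPM in Prmt5 KO and 455 ± 30.2 CPM in Control (log2 fold change 0.05, SE 0.12). Of the core proteins, neither of which passed the test, Uqcrc1 averaged 241 ± 26.5 CPM in Prmt5 KO and 204 ± 18.2 CPM in Control (log2 fold change 0.24, SE 0.15). Uqcrc2 averaged 348 ± 28.5 CPM in Prmt5 KO and 386 ± 61.7 CPM in Control (-0.15, SE 0.15). Uqcr10, a small accessory subunit, held 26.7, 47.1, 56.1 and 76.0 CPM in Prmt5 KO libraries, against 22.5, 26.3, 31.3 and 47.7 CPM in Control libraries. Its fold change of 0.68 (SE 0.38, adjusted p = 0.677, edgeR) was the largest of complex III, and the groups overlapped.

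Complex IV held 15 nuclear members in the files, of which 13 were tested, with 7 fold changes above 0 and 6 below. Cox4i1, the widely expressed isoform of subunit 4, averaged 311 ± 54 CPM in Prmt5 KO and 295 ± 44.4 CPM in Control (log2 fold change 0.08). Cox5a, a matrix-facing subunit, held 193, 257, 211 and 296 CPM in Prmt5 KO libraries, against 186, 166, 158 and 214 CPM in Control libraries. Control 4 lay above 2 of the Prmt5 KO libraries, and the log2 fold change was 0.40 (SE 0.18, unadjusted p = 0.0443, adjusted p = 0.597, edgeR). Of the 50-base words of Cox5a, 32.05% also occur in transcripts of other genes, and its exons overlap Gm26631 on the opposite strand.

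Cox7a2l (chr17:83501918-83517330, minus strand) encodes a protein known to join complexes III and IV into supercomplexes. It held 181, 190, 167 and 159 CPM in Prmt5 KO libraries, against 148, 129, 110 and 143 CPM in Control libraries. All 4 Prmt5 KO libraries were above all 4 Control libraries, with the lowest Prmt5 KO value close to the highest Control value. The log2 fold change was 0.39 (SE 0.17) and did not pass after adjustment (unadjusted p = 0.0415, adjusted p = 0.595, edgeR).

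Isoform pairs of complex IV differ in the tissues where they are known to be used, and the germ cells held mainly the widely expressed ones. Cox6b2, known from testis, held 2.87, 9.50, 6.55 and 0.997 CPM in Prmt5 KO libraries, against 9.80, 8.48, 17 and 15.5 CPM in Control libraries. The groups overlapped between Prmt5 KO 2 and Control 2, and the log2 fold change of -1.34 (SE 0.70, unadjusted p = 0.0794, adjusted p = 0.671, edgeR) was the only one of the 91 members beyond 1 in size, beside 11.6% of all genes. Cox6b1, its widely expressed partner, averaged 67.7 ± 25.8 CPM in Prmt5 KO and 60.8 ± 19.3 CPM in Control. Cox6b2 counts were 9.66%, 11%, 8.82% and 1.23% of Cox6b1 counts in Prmt5 KO libraries, against 17.7%, 14.1%, 41.9% and 17.8% in Control libraries. The groups did not overlap in this ratio, which was chosen after the values were seen and has no test. The Cox6b2 counts behind it are few, 310 over the 8 libraries.

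The other restricted isoforms were near the limit of detection. Cox7a1, the heart and muscle isoform, averaged 4.35 ± 2.94 CPM in Prmt5 KO and 4.74 ± 4.98 CPM in Control, while its partner Cox7a2 averaged 78.5 ± 38.7 CPM in Prmt5 KO and 75.2 ± 38.2 CPM in Control. The testis isoforms Cox7b2 and Cox8c had 88 and 22 counts in all 8 libraries and were not tested. Cox8a, the widely expressed partner of Cox8c, averaged 90.1 ± 45 CPM in Prmt5 KO and 75.4 ± 33.2 CPM in Control.

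**Figure D4:**
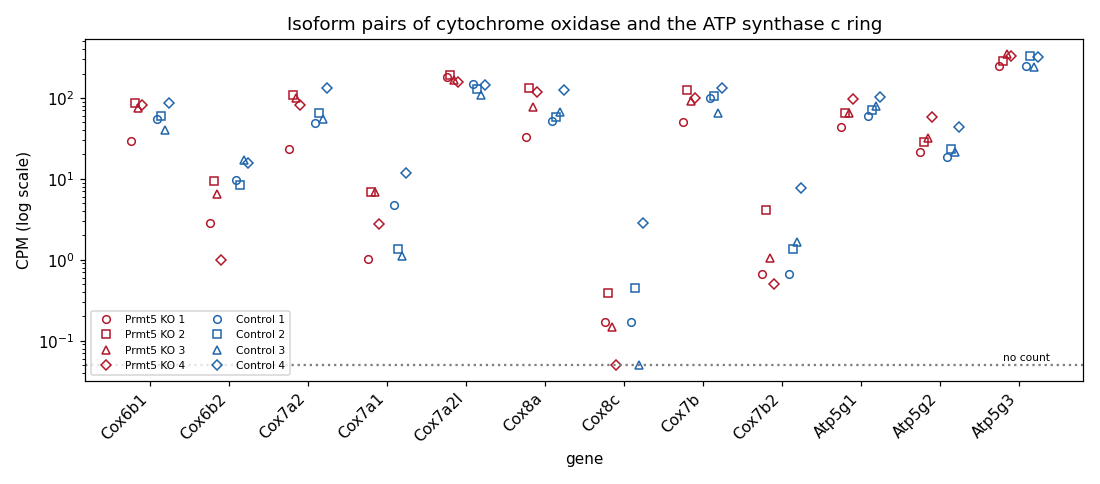
CPM (log scale) of isoform genes of complex IV and of the ATP synthase c ring in each library (red, Prmt5 KO; blue, Control; points on the dotted line have no count). Cox6b2 lies at 0.997 to 9.50 CPM in Prmt5 KO and 8.48 to 17 CPM in Control, below Cox6b1 in every library.

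By summed counts ATP synthase was the most abundant of the nuclear-encoded sets, through the alpha, beta and gamma subunits of its F1 head. The median of its nuclear genes, 76 CPM per kilobase, was below the medians of complexes II (94.2), III (133) and IV (96.8). It was above that of complex I (45). Atp5b, the catalytic beta subunit (chr10:128083273-128090391, plus strand), held 4427, 4577, 4292 and 5491 CPM in Prmt5 KO libraries, against 3954, 4619, 4721 and 4514 CPM in Control libraries. The groups overlapped, and the log2 fold change was 0.08 (SE 0.10). This 1 gene took 32.1% ± 2.07 of all nuclear member counts in Prmt5 KO and 30.8% ± 2.26 in Control, and together with the alpha subunit Atp5a1 and the gamma subunit Atp5c1 49.9% ± 2.09 in Prmt5 KO and 49.5% ± 2.86 in Control (SD, n = 4 each). Per kilobase over the 8 libraries Atp5b was at 2388 CPM, Atp5c1 at 1211 and Atp5a1 at 466, while the delta and epsilon subunits of the same head, Atp5d and Atp5e, were at 81.6 and 62.4. By this measure subunits that sit in 1 complex differed widely, although alpha and beta are present in equal number in it. The part of transcript choice, length and capture in these differences between genes was not tested.

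The remaining ATP synthase genes had small fold changes, 6 of all 18 above 0 and 12 below, from -0.42 (Atp5mpl) to 0.37 (Atp5g2). Atp5j, the coupling factor of the stalk, averaged 38 ± 8.79 CPM in Prmt5 KO and 49.8 ± 11.3 CPM in Control, and Atp5j2, a membrane subunit, 56.2 ± 29.5 CPM in Prmt5 KO and 73.2 ± 16.7 CPM in Control. The 3 genes Atp5g1, Atp5g2 and Atp5g3 are known to encode the same mature c-ring protein, and Atp5g3 led with 302 ± 42.3 CPM in Prmt5 KO and 284 ± 46.9 CPM in Control. All 50-base words of Atp5g2 also occur in transcripts of other genes, so its level is uncertain. The same holds in part for Atp5l, Atp5h, Cox7c and both genes that carry the symbol Atp5o, 1 of which is a read-through model; in all, 6 of the 82 nuclear members share at least 50% of their words. A further limit is that 22 of the 95 members overlap exons on the opposite strand.

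Short subunit transcripts stood high or low together in a library, and each group held libraries of both kinds. Over 32 nuclear members with transcripts under 700 bases, the median difference from the 8-library mean on the log2(CPM + 0.5) scale was -0.64, 0.38, 0.20 and 0.18 in Prmt5 KO libraries, against -0.08, 0.04, -0.25 and 0.47 in Control libraries. Prmt5 KO 1 was the lowest library for 17 of these 32 genes and Control 4 the highest for 12. For the 26 members of 1200 bases or more the medians were between -0.17 (Prmt5 KO 1) and 0.13 (Prmt5 KO 2 and Control 4). Other protein-coding genes under 700 bases (177 genes) did the same, with -0.52 in Prmt5 KO 1 and 0.35 in Prmt5 KO 2, beside 0.24 in Control 4, while those of 1200 bases or more (9376 genes) lay between -0.04 and 0.04. Many accessory subunits of complexes I, III, IV and V have such short messages; the part of this spread in their fold changes was not tested.

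**Figure D5:**
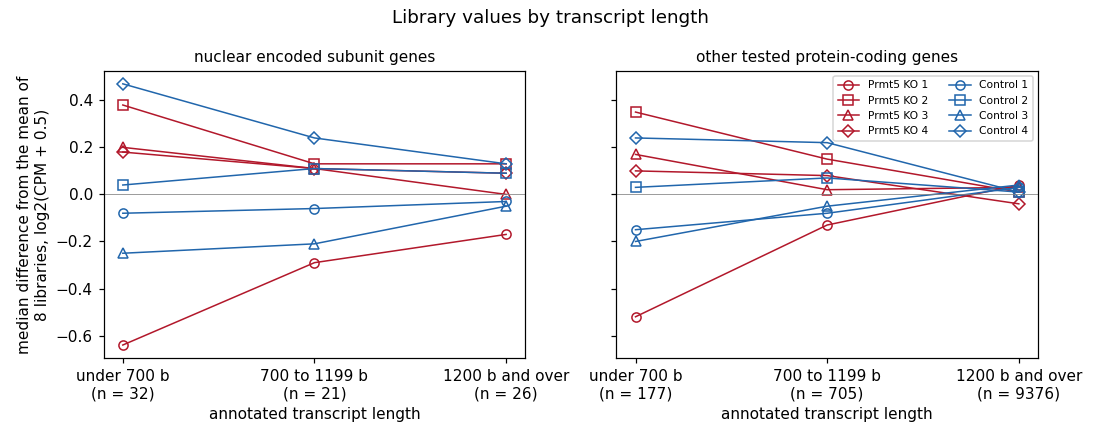
Median difference of each library from the 8-library mean (log2(CPM + 0.5) scale) for nuclear encoded subunit genes (left) and other tested protein-coding genes (right), by annotated transcript length; 1 line per library, red for Prmt5 KO and blue for Control. In genes under 700 bases the libraries spread from -0.64 to 0.47 on the left and from -0.52 to 0.35 on the right, and both groups hold libraries on each side of 0.

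Genes that build or feed the chain were read from the same fit, and 0 of them were called by edgeR or by DESeq2. Of 47 tested assembly factors, which put the complexes together, 1 had an unadjusted p under 0.05 (8.15% of all genes did), and their median log2 fold change was -0.04. That gene was Ttc19, a complex III assembly factor, at 45.4, 67.6, 48.8 and 113 CPM in Prmt5 KO libraries, against 42.3, 27.2, 34.0 and 22.2 CPM in Control libraries. The groups did not overlap (2.63% of all genes lay this way), and the log2 fold change was 1.13 (SE 0.35, unadjusted p = 0.00726, adjusted p = 0.409, edgeR). Ttc19 exons overlap Ncor1 on the opposite strand. Sco2, a copper chaperone of complex IV, stood at 177 CPM in Prmt5 KO 4 and at 35.1 to 50.3 CPM in the other 7 libraries, and its log2 fold change of 0.94 was 0.08 without Prmt5 KO 4. The complex I factor Timmdc1 (-1.31), the complex IV factor Coa4 (-1.28) and the ATP synthase factor Atpaf2 (-1.07) had negative fold changes of over 1 in size, each with an adjusted p of at least 0.615 (edgeR). Prmt5 KO libraries were all below Control libraries for Timmdc1 (1.86 to 6.98 CPM in Prmt5 KO, 8.27 to 14.3 CPM in Control) and Atpaf2 (0.997 to 14 CPM in Prmt5 KO, 14.7 to 28 CPM in Control), as for 2.27% of all genes, and the groups overlapped for Coa4. The other factors with the smallest unadjusted p in their lists were Ndufaf7 (-0.44, SE 0.30) of complex I, Sdhaf2 (-0.45, SE 0.42) and Sdhaf4 (0.11, SE 0.30) of complex II, Uqcc3 (0.55, SE 0.49) of complex III and Tmem70 (0.35, SE 0.32) of complex V. For Uqcc3 the value was between 0.05 and 0.89 when 1 library was left out, and for Sdhaf2 between -0.87 and -0.24. Ndufab1, the acyl carrier protein that is also a complex I subunit, averaged 40.9 ± 6.31 CPM in Prmt5 KO and 33.1 ± 8.02 CPM in Control (0.31, SE 0.32).

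The genes of mitochondrial DNA upkeep and transcription (15 tested) had a median of -0.25, with 2 below an unadjusted p of 0.05, beside 8.15% of all genes. These were the replicative helicase Twnk, at 31.9 ± 13.2 CPM in Prmt5 KO and 55.6 ± 10.9 CPM in Control (log2 fold change -0.79, adjusted p = 0.595, edgeR), and the exonuclease Mgme1 at -0.64. Tfam, which packages and transcribes mitochondrial DNA, averaged 183 ± 34.8 CPM in Prmt5 KO and 150 ± 18.9 CPM in Control. Among 19 genes of mitochondrial RNA processing (median 0.13), 2 had an unadjusted p under 0.05, the deadenylase Pde12 at -0.85 and Ptcd1 at 0.67. The 7 tested nuclear regulators had a median of 0.20, 6 of them above 0, with the GABP subunits Gabpb1 at 0.62 (SE 0.30) and Gabpa at 0.20 (SE 0.21), and the 78 tested mitochondrial ribosomal proteins had 39 fold changes on each side of 0, 4 of them with an unadjusted p under 0.05, among these Mrpl9 (1.04, SE 0.43) and Mrps2 (-0.60, SE 0.24). Exons of Gabpa overlap the member Atp5j on the opposite strand.

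Fuel genes gave a similar picture. The tricarboxylic acid cycle list (18 tested, median -0.01) held 2 genes with an unadjusted p under 0.05 (8.15% of all genes), both of the NAD-dependent isocitrate dehydrogenase: Idh3b averaged 172 ± 28.6 CPM in Prmt5 KO and 255 ± 15.9 CPM in Control (log2 fold change -0.57, SE 0.16, adjusted p = 0.371, edgeR), and Idh3g 220 ± 43.5 CPM in Prmt5 KO and 315 ± 68.5 CPM in Control (-0.52). Idh3a, another subunit of that enzyme, was on the other side of 0, at 118 ± 39.3 CPM in Prmt5 KO and 96.4 ± 29.3 CPM in Control (0.28, SE 0.27). Idh3b overlaps Nop56 on the opposite strand. The glycolysis list (18 tested, median 0.02) held 1, the glucose transporter Slc2a1, at 174 ± 49.8 CPM in Prmt5 KO and 108 ± 24.7 CPM in Control (log2 fold change 0.69, adjusted p = 0.457, edgeR), and next to it in unadjusted p was the hexokinase Hk1 (0.74, SE 0.45). The list of carriers and other entry points (9 tested, median -0.10, 7 of 9 below 0) held 3 genes with an unadjusted p under 0.05, 1 higher and 2 lower. The higher one, Slc25a3, the carrier that brings phosphate to ATP synthase, held 1637, 1292, 1191 and 1508 CPM in Prmt5 KO libraries, against 1093, 1004, 920 and 919 CPM in Control libraries. All Prmt5 KO libraries were above all Control libraries, and the log2 fold change was 0.52 (SE 0.12, unadjusted p = 0.00111, adjusted p = 0.247 by edgeR and 0.0674 by DESeq2). The lower ones were Gpd2, the glycerol phosphate dehydrogenase that feeds electrons to ubiquinone, at 31.9 ± 14.9 CPM in Prmt5 KO and 64.5 ± 26.1 CPM in Control (-1.02, SE 0.38, adjusted p = 0.521, edgeR), and Ucp2, a mitochondrial carrier of the uncoupling protein family, at 57.8 ± 20.4 CPM in Prmt5 KO and 106 ± 40.9 CPM in Control (-0.87, SE 0.35, adjusted p = 0.552, edgeR). The adenine nucleotide carrier Slc25a4 averaged 1194 ± 161 CPM in Prmt5 KO and 1238 ± 65.4 CPM in Control.

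The soluble electron carrier between complexes III and IV is cytochrome c, and 3 genes were listed with it. Cyc1, the cytochrome c1 of complex III, averaged 306 ± 65 CPM in Prmt5 KO and 295 ± 27.7 CPM in Control, and Cycs, the somatic cytochrome c, 35.1 ± 7.03 CPM in Prmt5 KO and 39.4 ± 1.68 CPM in Control. Cyct, the testis form, held 2.20, 5.62, 7.89 and 8.97 CPM in Prmt5 KO libraries, against 10.8, 6.25, 11.5 and 28.7 CPM in Control libraries, with a log2 fold change of -1.23 (SE 0.66, adjusted p = 0.673, edgeR) that was -0.63 without Control 4.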

How the data were processed

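RNA of sorted primordial germ cells was sequenced on the SOLiD platform in 8 libraries (4 Prmt5 KO, 4 Control), grouped by genotype label. The deposited files hold whole-number read counts per transcript. GRCm38 and mm10 are the builds in the submitters' processing notes. The aligner, the counter, the annotation and the use of strand were not given in the sources used here. Transcript identifiers were matched to GENCODE M21 (64258 of 66262), and unmatched ones, 1.75% to 1.9% of the counts of a library, were left out. Each gene took the count of the transcript with most counts summed over all libraries, since summing transcripts would count shared reads repeatedly.

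The design was written for gene counts, and the files hold transcript counts. Genes were filtered with filterByExpr (minimum count 10, minimum total 15), scaled by TMM and compared with edgeR 4.0.16's quasi-likelihood test in R 4.3.3 (robust estimation, Benjamini-Hochberg adjustment over all 10990 genes at 0.05). The fits were tested on simulated data. CPM use the TMM-scaled library sizes, and the standard error is the log2 fold change divided by the square root of F. DESeq2 1.42.0, limma 3.58.1 voom, other scalings, no filter, a replicate block and leaving out libraries were alternatives. Counting error falls with a gene's count; totals per library were as low as 1811428 counts, in Control 3.

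The members and lists were chosen with earlier results of these data known. Genes named are all 13 mitochondrially encoded members, per complex the 2 nuclear members with the highest level per kilobase and the 2 with the smallest unadjusted p, the tissue-restricted isoforms, and from each pathway list the 2 with the smallest unadjusted p; others named (paralogs, ends of a range, known core genes) were chosen after their values were seen.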

Additional observations from a re-analysis of the deposited data

Results flagged for a closer look

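In each group of 4 libraries, the highest or lowest value was set against the others with Dixon's test over 74 sets of 4 values (members' levels and summed shares), of which 11 stood apart; chance gives about 1 in 20, or 3.7 here. No explanation was tested for any of them.

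Prmt5 KO 1 stood above the other Prmt5 KO libraries for mt-Nd4 (16086 CPM), mt-Cytb (13145 CPM), the mitochondrially encoded share of counts (11.3%) and the ratio of mitochondrially to nuclear encoded counts (8.93). This library also had the highest summed CPM of somatic gonad markers, 796 against 177 to 217 in the other Prmt5 KO libraries. Prmt5 KO 4 stood above the other Prmt5 KO libraries for Ndufs1 (544 CPM) and Sdhb (277 CPM).

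Among single values, Uqcrfs1 was high in Prmt5 KO 2 (532 CPM). Cox7b2, a gene with 88 counts in all, was high in Prmt5 KO 2 (4.07 CPM) and in Control 4 (7.74 CPM). Sdha was high in Control 1 (930 CPM), and Atp5c1 was low in Control 1 (1301 CPM).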

How the results depend on the processing

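No member with a test was called under any of the 20 alternatives, in either genome. The number of genes called among all genes, 3, was 107 with DESeq2, 1 with limma voom, 7 with no filter on low counts, 1 with the replicate block, 1 with summed transcripts, 1 without Prmt5 KO 1 and 4, 0 without Control 2 and 3 (713 genes had an unadjusted p under 0.05 there, edgeR), and 1 to 2 when 1 library was left out. The other scalings gave 2 or 3. The median log2 fold change of the mitochondrially encoded members, -0.01, was -0.22 without Prmt5 KO 1 and 4, and ranged from -0.11 to 0.03 when 1 library was left out; that of the nuclear members, -0.04, ranged from -0.08 to 0.09 when 1 library was left out and from -0.12 to 0.11 over all alternatives. Over all alternatives, the difference in the mitochondrially encoded share ranged from -1.22 to -0.22 percentage points, in the nuclear share from -0.04 to 0.05 points, and in the log2 ratio of mitochondrially to nuclear counts from -0.23 to 0 (when 1 library was left out, -1.22 to -0.31, -0.04 to 0.05 and -0.23 to -0.03). Of 32 named members, 19 kept the sign of their fold change in all alternatives and 13, none with a size over 0.385, did not. Replicate numbers did not pair the libraries (correlations of same-numbered Prmt5 KO and Control libraries 0.0694, 0.0396, 0.00226 and 0.0504), and the block gave a log2 fold change of Prmt5 of -1.92, then without a call. The causes of these changes were not tested. Depth limits members with few counts, such as mt-Nd4l (3 counts in all), Ndufa4l2 (12), Cox8c (22), Cox7b2 (88) and Cox6b2 (310).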
